A study of Mus musculus with 12 samples.

Results

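The mesothelial genes of mouse visceral fat were followed through RNA-seq libraries of gonadal white adipose tissue (gWAT). They are Msln, Upk3b, Upk1b, Wt1, Lrrn4, Krt19, Krt8 and Gpm6a, 8 of the 19792 genes in the deposited table of raw counts. They were listed by name, with earlier results of these data known. All 8 were among the 16352 genes that passed the filter on low counts. The 12 libraries came from male C57BL/6 mice, 3 in each of 4 groups. Every mouse carried floxed alleles of Gja1, which encodes the gap junction protein connexin 43 (Cx43). WT mice had no CreER, and KO mice also carried Csf1r creER, which is meant to delete Gja1 in macrophages and not in mesothelium. The Csf1r-CreER line has an FVB strain name, so strain background can differ between genotypes. Mice received normal chow (NCD) or a high-fat diet (HFD) for 8 weeks from 6 weeks of age, which gives the groups WT-NCD, WT-HFD, KO-NCD and KO-HFD. The deposited protocol gives tamoxifen, which activates CreER, for 5 days at weeks 1 and 5 of the diet. The study's methods differ, with 5 consecutive days of dosing that ended before experiments were started. The treatment labels list tamoxifen for KO samples alone, whereas the study's methods give it to both genotypes. If the labels are complete, tamoxifen and genotype cannot be told apart. Libraries are named by group and by their number in the table, 1, 2 and 3 in each group but WT-HFD, which has 1, 2 and 4.

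The mesothelium is a single sheet of flat cells that covers the organs and walls of the body cavities, including the surface of gonadal fat. It secretes a lubricating fluid and glycoproteins, and it is unusual in carrying keratins like an epithelium while deriving from mesoderm. Its cells stay on the fat when a depot is dissected, so their RNA is part of a whole-depot library. Msln encodes mesothelin, a cell surface glycoprotein bound by the mucin Muc16. Upk3b and Upk1b belong to the uroplakins, membrane proteins best known from the plaques of the bladder lining, and Upk1b is a tetraspanin that partners Upk3-type chains there. Lrrn4 encodes a membrane protein with leucine-rich repeats, and Gpm6a a membrane glycoprotein better known from neurons. Wt1 is a zinc finger transcription factor of the mesothelium that is also found in some progenitors of visceral fat. Krt8 and Krt19 are keratins of simple epithelia, so glands and ducts express them too.

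Promoters were looked up because the levels of most members were correlated from library to library. RefSeq sequences on GRCm38, from 250 bases before to 50 after an annotated start of a gene, were matched for 4 of the 8 members. All 4 are shown, Upk3b (chr5:136038246-136038545, plus strand), Lrrn4 (chr2:132880813-132881112, minus strand), the upstream start of Gpm6a (chr8:54779184-54779483, plus strand) and Krt8 (chr15:102004293-102004592, minus strand). The downstream start of Gpm6a was also matched and is not shown. Upk3b, Lrrn4 and Gpm6a followed each other most closely among the members, and Krt8 followed them least. The genes shown were fixed by the match, however, and not chosen by correlation. Capitals mark matches, on either strand, to GGAATG (the MCAT element, bound by TEAD factors), TATAAA (the TATA box) and GGGCGG (the GC box).

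Upk3b: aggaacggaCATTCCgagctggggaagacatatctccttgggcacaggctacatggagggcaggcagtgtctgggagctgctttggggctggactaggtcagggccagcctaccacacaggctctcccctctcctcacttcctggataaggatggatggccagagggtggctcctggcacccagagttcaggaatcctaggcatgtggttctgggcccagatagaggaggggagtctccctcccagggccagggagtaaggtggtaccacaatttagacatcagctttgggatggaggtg
Lrrn4: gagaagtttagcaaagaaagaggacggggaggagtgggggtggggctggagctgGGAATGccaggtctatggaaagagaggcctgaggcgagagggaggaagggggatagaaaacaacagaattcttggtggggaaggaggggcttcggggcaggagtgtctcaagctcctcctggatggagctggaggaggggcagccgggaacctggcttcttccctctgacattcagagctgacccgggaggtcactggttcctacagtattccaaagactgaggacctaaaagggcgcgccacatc
Gpm6a: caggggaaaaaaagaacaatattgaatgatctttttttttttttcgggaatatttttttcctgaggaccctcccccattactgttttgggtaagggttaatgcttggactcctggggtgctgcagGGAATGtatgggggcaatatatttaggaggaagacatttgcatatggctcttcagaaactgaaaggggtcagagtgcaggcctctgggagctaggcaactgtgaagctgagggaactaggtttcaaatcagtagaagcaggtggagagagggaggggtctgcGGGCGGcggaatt
Krt8: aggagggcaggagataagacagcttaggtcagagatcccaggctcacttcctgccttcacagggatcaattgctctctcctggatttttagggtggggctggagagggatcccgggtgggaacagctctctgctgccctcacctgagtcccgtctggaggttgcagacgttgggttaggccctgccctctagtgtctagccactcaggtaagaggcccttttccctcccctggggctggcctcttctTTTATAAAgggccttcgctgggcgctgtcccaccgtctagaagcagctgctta

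GGAATG or its reverse complement lay at bases 10 to 15 of the Upk3b window, 55 to 60 of the Lrrn4 window and 126 to 131 of the Gpm6a window. It was in 3 of the 5 member windows, which come from 4 genes, and in 14.7% of 32851 promoters of the same length. The fifth window, the downstream start of Gpm6a, held no GGAATG match and only a TATA box match on the minus strand. Lrrn4 spans chr2:132866686-132894010 on the minus strand in RefSeq, so its window lies at a start inside the gene. Which start of Gpm6a or of Lrrn4 is used in gWAT was not measured. Matches to the TATA box on both strands overlapped in TTTATAAA at bases 248 to 255 of the Krt8 window, and 13.6% of all promoters held that motif. The GC box was in 1 member window, against 35.7% of all promoters. CCAAT (37.4% of all promoters), GCGTGGGAG, a WT1 element (0.472%), and TGANTCA, the AP-1 site (7.81%), were in 0 of the 5. A match here is a run of letters only, and binding was not measured.

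The libraries held between 47185990 and 73167755 counts (median 63334598), and no pair of libraries of a group agreed within sampling noise. WT-NCD 1 to 3 held seminal vesicle transcripts at a summed 102600, 117900 and 21840 counts scaled to library size (CPM), against at most 15.9 CPM in the other 9 libraries. Liver transcripts summed to 14.7, 544 and 59 CPM in KO-NCD and to 158.6, 1426 and 250.1 CPM in KO-HFD. The WT libraries held at most 52 CPM of them. Markers of ciliated epithelium summed to 57.2 CPM in KO-NCD 2 and 34.35 CPM in KO-HFD 2, against at most 13.15 CPM elsewhere. Gja1, the targeted gene, was at 73.8, 76.8 and 83.6 CPM in WT-NCD, at 68.8, 65.8 and 68.1 in WT-HFD, at 48.9, 149.8 and 67.1 in KO-NCD and at 67.2, 96.8 and 65.7 in KO-HFD. WT-HFD lay below WT-NCD without overlap, as 24.6% of all genes tested did, and the KO groups overlapped with both WT groups. The study reported higher Cx43 protein in gWAT under HFD by immunoblot, and an effect of diet on Gja1 by qPCR. It also reported effects of genotype in gWAT, on Gja1 by qPCR and on Cx43 protein by immunoblot. The knockout itself was checked there by qPCR of Gja1 in macrophages isolated from gWAT. Whole tissue holds many Gja1-expressing cells besides macrophages. CPM here follow TMM normalization, with edgeR's cpm function, and are listed in order of library number.

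All 8 members were detected in every library, the lowest value being 6.61 CPM for Gpm6a in KO-NCD 1. Per kilobase of exon, the mean level over the 12 libraries was 26.5 ± 16.7 CPM (SD, n = 12) for Upk1b, 24.5 ± 16.3 for Upk3b and 21.5 ± 16.8 for Msln. It was 18.9 ± 12.6 for Krt19, 16.3 ± 9.74 for Krt8, 12.5 ± 7.99 for Gpm6a, 10.9 ± 8.58 for Lrrn4 and 3.63 ± 1.70 for Wt1. From Upk1b to Lrrn4, neighbours in this order differed by less than the SD of either between libraries, and Wt1 was the lowest of the 8 in all 12 libraries. The label was checked against genes that tell mesothelium from bladder lining. Upk2, a uroplakin of the bladder, was at 1.14, 0.973 and 0.260 CPM in WT-NCD and at 0 in the other 9 libraries, and the summed urothelial markers Upk1a, Upk2, Upk3a and Krt20 reached at most 1.62 CPM. Calb2, the mesothelial marker calretinin, was nearly absent, at no more than 0.0372 CPM in any library. Msln lies at chr17:25748613-25754378 on the minus strand in the RefSeq annotation of GRCm38. Krt8 overlaps the long noncoding RNA Gm36026 on the opposite strand, and the strand used in counting is not stated, so reads of that pair may be shared. Gpm6a overlaps 5 further annotated genes on its own strand, so its counts may hold or lose reads of theirs.

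The members varied widely between libraries of the same group, mostly but not always in the same direction. Upk3b, for instance, was higher in WT-HFD 1 than in WT-HFD 4, whereas Wt1, Krt8 and Upk1b were lower there. The summed level of the 8 was at 257, 281 and 159.8 CPM in WT-NCD, at 353, 846 and 279 in WT-HFD, at 115, 263 and 469 in KO-NCD and at 871, 240.3 and 399 in KO-HFD. The highest library held 7.6 times the level of the lowest, and both WT-HFD 2 and KO-HFD 1 stood above every other library. The spread was largest for Lrrn4, at 14.7-fold between its highest and lowest library, and smallest for Wt1, at 5.23-fold. Within groups, the SD on the log2 CPM scale ran from 0.70 for Wt1 to 1.02 for Upk3b, with a median of 0.94. The median was 0.18 over the 7992 genes with a mean level of 10 to 100 CPM, and the members lay between its 97.2 and 99.0 percentiles. Bulk RNA does not tell fewer mesothelial cells from less RNA per cell.

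**Figure D1:**
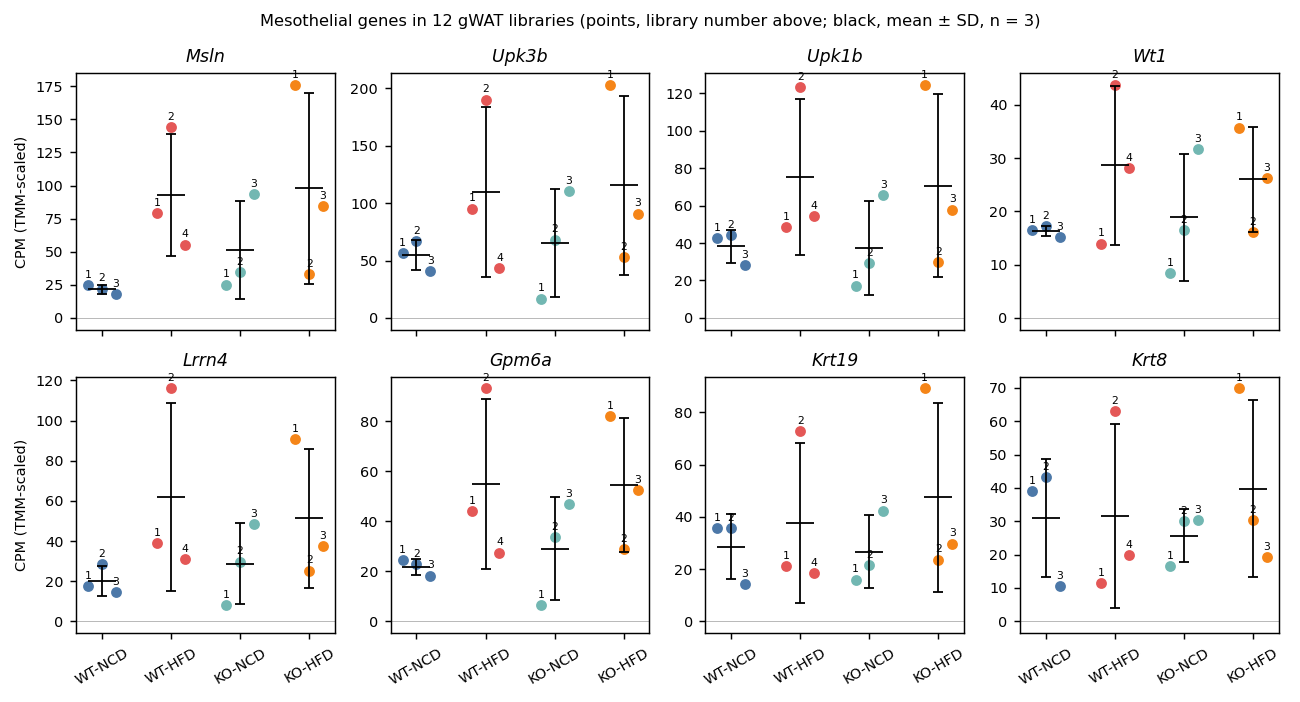
CPM of each of the 8 mesothelial genes (linear axis) by group, with 1 point per library and black bars for the mean ± SD of 3 libraries. Spread within a group is wide for every gene, and Msln in WT-NCD, at 17.7 to 24.9 CPM, lies below all other libraries.

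Upk3b, the uroplakin most used to mark mesothelium, was among the most variable members. It was at 56.6, 67.3 and 40.9 CPM in WT-NCD, at 95.2, 190.3 and 43.7 in WT-HFD, at 16.8, 68.2 and 110.5 in KO-NCD and at 203, 53.3 and 90.9 in KO-HFD. All 4 groups overlapped, and the lowest and highest libraries were both KO. Gpm6a was at 24.4, 23.0 and 18.3 CPM in WT-NCD, at 44.0, 93.2 and 27.5 in WT-HFD, at 6.61, 33.6 and 47.0 in KO-NCD and at 82.1, 28.8 and 52.4 in KO-HFD. Its libraries stood in nearly the same order as those of Upk3b. Over the 12 libraries, which share tissue, depth and scaling, Upk3b and Gpm6a had a Pearson r of 0.97 on the log2 CPM scale (Spearman rho 0.909). After group means were removed the r was 0.976, and without WT-HFD 2 and KO-HFD 1 it was 0.953. Lrrn4 followed both, with an r of 0.955 to Upk3b and 0.961 to Gpm6a.

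Over the 28 pairs of members the r ran from 0.415 to 0.970, with a median of 0.84, and from 0.561 to 0.976 with group means removed. The loosest pair was Msln and Krt8. Its r of 0.415 became -0.128 without WT-HFD 2 and KO-HFD 1, the libraries with the highest levels. The keratins Krt19 and Krt8 had an r of 0.875 to each other. These correlations are descriptions of 12 libraries from 4 groups and carry no test.

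**Figure D2:**
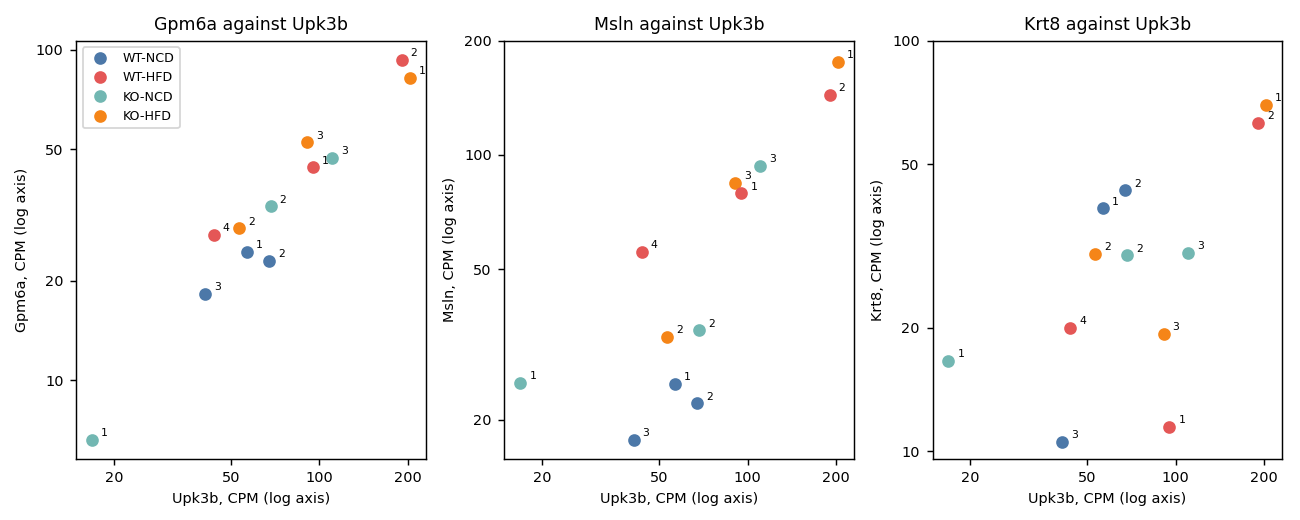
CPM of Gpm6a, Msln and Krt8 against CPM of Upk3b, both on log axes, with 1 numbered point per library coloured by group. Gpm6a follows Upk3b closely (r 0.970), while Msln in WT-NCD and Krt8 in several libraries leave the common line.

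The first comparison asked what HFD does in WT fat. Msln was 4.31-fold higher under HFD in WT mice, and it was the only member that passed the test. Lrrn4, Gpm6a and Upk1b were higher in every WT-HFD library than in any WT-NCD library but did not pass. Upk3b, Wt1, Krt19 and Krt8 overlapped between the diets. Thus 1 of 8 members was called higher and 0 lower, against 17.6% of all genes tested called higher and 18.4% lower, 36% in either direction. Without overlap, 4 of 8 members were higher and 0 lower, against 23.5% and 24.6% of all genes. With the study's rule of a fold over 1.5 and an unadjusted p under 0.05, 2 of 8 members passed, against 31% of all genes. Here and below that rule was applied to results of edgeR's test. The study applied it with DESeq2 and reported fewer genes, for the diets in each genotype and for KO-HFD against WT-HFD.

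Msln was at 24.9, 22.1 and 17.7 CPM in WT-NCD and at 79.2, 144 and 55.4 CPM in WT-HFD. Every WT-HFD library was more than double the highest WT-NCD library. The group means were 21.6 ± 3.604 and 92.9 ± 45.8 CPM (SD, n = 3), and the log2 fold change was 2.11 (SE 0.63, 95% interval 0.71 to 3.51). The adjusted p was 0.0245 in edgeR's quasi-likelihood test with Benjamini-Hochberg adjustment over all genes. In the same test, the call was lost when WT-NCD 1, WT-NCD 2, WT-NCD 3 or WT-HFD 2 was left out, with log2 fold changes of 2.22, 2.104, 1.98 and 1.64 and adjusted p of 0.0608, 0.0672, 0.0811 and 0.0884. Without WT-NCD 1 and 2 together, the libraries richest in seminal vesicle transcripts, it was 2.39, with an adjusted p of 0.189 and 1 WT-NCD library left.

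Lrrn4 was at 17.4, 28.3 and 14.6 CPM in WT-NCD and at 39.0, 116 and 31.2 CPM in WT-HFD. The groups did not overlap, yet the lowest WT-HFD library was close to the highest WT-NCD library. Its log2 fold change was 1.63 (SE 0.71, edgeR adjusted p = 0.0975). That of Gpm6a was 1.33 (SE 0.64, edgeR adjusted p = 0.133). Both passed when the 2 WT groups were fitted alone, with edgeR adjusted p of 0.0451 and 0.0414, where 3 of 8 members were called. WT-HFD 2 was the highest WT-HFD library for all 8 members, at 43.8 CPM even for Wt1 against 14.0 in WT-HFD 1.

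Upk1b, the tetraspanin partner, was at 42.7, 44.2 and 28.1 CPM in WT-NCD and at 48.5, 123 and 54.4 CPM in WT-HFD. The groups did not overlap, but WT-HFD 1 lay just above WT-NCD 2. Its log2 fold change was 0.98 (SE 0.59, edgeR adjusted p = 0.222). Wt1, the transcription factor, was at 16.4, 17.2 and 15.2 CPM in WT-NCD, a narrow range, and at 14.0, 43.8 and 28.2 CPM in WT-HFD. Its log2 fold change of 0.81 (SE 0.49) had an edgeR adjusted p of 0.223, and that of Upk3b was 1.00 (SE 0.70, edgeR adjusted p = 0.293). The median log2 fold change over the 8 members was 0.99, against 0 over all genes tested.

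**Figure D3:**
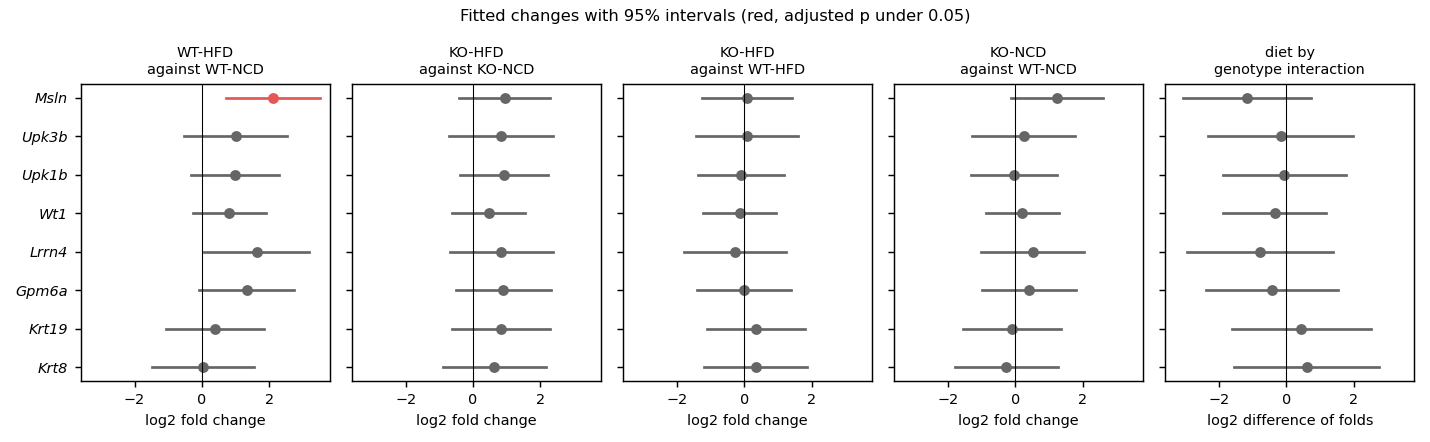
Log2 fold changes of the 8 mesothelial genes in the 4 comparisons between groups and for the diet by genotype interaction. The 95% intervals were derived from the F statistic of edgeR's test. Intervals span several-fold, and among called members there is only Msln for WT-HFD against WT-NCD, at 2.11.

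Members were also read within a library, relative to Upk3b. The ratio of Msln counts to those of Upk3b was 0.440, 0.329 and 0.434 in WT-NCD, and it was 0.832, 0.757 and 1.27 in WT-HFD, 1.49, 0.506 and 0.847 in KO-NCD and 0.867, 0.622 and 0.929 in KO-HFD. WT-NCD thus lay below all 9 other libraries, with no overlap. The mean log2 ratio differed by 1.22 between WT-HFD and WT-NCD and by 1.12 between KO-NCD and WT-NCD. Each had an exact two-sided permutation p of 0.1, the smallest that 3 against 3 libraries can give, among 28 such ratio comparisons. The same p and no overlap were found for Gpm6a in WT-HFD against WT-NCD, with a smaller difference of 0.37, and for Lrrn4 in KO-NCD against WT-NCD, with 0.32. All 3 WT-NCD libraries also held seminal vesicle transcripts, at 21840 CPM or more, and their part in the Msln ratio was not tested.

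The keratins varied more within WT-NCD than between the WT diets. Krt8, the type II keratin of simple epithelia, was at 39.1, 43.2 and 10.55 CPM in WT-NCD, at 11.5, 63.0 and 19.97 in WT-HFD, at 16.6, 29.98 and 30.5 in KO-NCD and at 69.8, 30.2 and 19.3 in KO-HFD. WT-NCD 1 and 2 were almost alike and WT-NCD 3 was the lowest of all 12 libraries. Its log2 fold change for WT-HFD against WT-NCD was 0.03 (SE 0.69, edgeR adjusted p = 0.981). Krt19, a type I keratin without a tail domain, was at 35.7, 35.7 and 14.4 CPM in WT-NCD and at 21.2, 72.9 and 18.6 CPM in WT-HFD. It repeated the split within WT-NCD, with a log2 fold change of 0.39 (SE 0.66, edgeR adjusted p = 0.680). Krt18, the usual partner of Krt8, was at 50.8, 52.0 and 12.2 CPM in WT-NCD and at 6.33 to 27.1 CPM elsewhere.

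Markers of ductal and glandular epithelium moved with this split. The 8 markers (Epcam, Cdh1, Cldn3, Cldn4, Esrp1, Elf3, Ehf and Krt5) summed to 96.6, 136.5 and 26.2 CPM in WT-NCD and 3.19, 6.20 and 6.63 CPM in WT-HFD. In KO-NCD they summed to 2.31, 42.1 and 9.18 CPM and in KO-HFD to 6.15, 33.7 and 8.57 CPM, and Krt5 was at 0 outside WT-NCD. Between the WT diets 7 of the 8 were called lower in WT-HFD, against 18.4% of all genes tested. Without WT-NCD 1 and 2, the log2 fold change of Krt8 for WT-HFD against WT-NCD was 1.58 and that for KO-NCD against WT-NCD was 1.26, neither of them called. KO-NCD 1, with the lowest sum of these markers, had the highest ratio of Krt8 to Upk3b counts, 0.986. Upk3b, the divisor, was at its lowest in that library, at 16.8 CPM, with Krt8 at 16.6 CPM. The ratios of Msln and Krt19 to Upk3b were also highest there, at 1.49 and 0.952, so this ratio does not single out Krt8. The part of gland cells in the keratin levels was not tested.

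The same diets were compared in KO mice, where macrophages should lack Cx43. None of the 8 members passed, against 0.0306% of all genes tested (4.18% by the study's rule). The groups overlapped for all 8, whereas 8.52% of all genes were higher and 8.95% lower without overlap. edgeR gave 0 members at an unadjusted p under 0.05 as well, and DESeq2 called 0. Msln was at 25.1, 34.5 and 93.5 CPM in KO-NCD and at 176, 33.2 and 84.5 CPM in KO-HFD. KO-NCD 3 exceeded both of the lower KO-HFD libraries, so the diets were mixed in order. Its log2 fold change was 0.94 (SE 0.61, 95% interval -0.41 to 2.29, edgeR adjusted p = 0.695). Over the members the log2 fold changes ran from 0.46 for Wt1 to 0.94 for Msln, with a median of 0.84 against -0.01 over all genes tested, and edgeR adjusted p ran from 0.687 to 0.827.

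Within KO-NCD the libraries were ordered alike for all members. KO-NCD 1 was lowest and KO-NCD 3 highest for each of the 8, for example Lrrn4 at 7.91, 29.7 and 48.3 CPM. In KO-HFD, Lrrn4 was at 90.8, 25.3 and 37.6 CPM and Upk1b at 124, 29.8 and 57.9 CPM, so that KO-HFD 1 was far above the other two. For Wt1 the KO values were 8.37, 16.5 and 31.7 CPM under NCD and 35.7, 16.05 and 26.3 CPM under HFD. KO-NCD 3 lay within the KO-HFD range.

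The third comparison asked whether genotype mattered under HFD. KO-HFD and WT-HFD overlapped for all 8 members, against 19.3% of all genes higher and 17% lower without overlap. None passed, against 15.7% of all genes tested (20.7% by the study's rule), with 0 at an unadjusted p under 0.05 in edgeR and 0 by DESeq2. Log2 fold changes ran from -0.28 for Lrrn4 to 0.34 for Krt19, with a median of 0.03 against 0.02 over all genes tested, and edgeR adjusted p from 0.758 to 0.993. For Msln the group means were 97.9 ± 72.4 CPM in KO-HFD and 92.9 ± 45.8 CPM in WT-HFD (SD, n = 3), with a 95% interval of -1.27 to 1.42 on the log2 scale. For Upk3b the means were 115.8 ± 77.9 and 109.7 ± 74.4 CPM and the interval was -1.44 to 1.60. Changes of more than double in either direction thus lie inside these intervals.

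Under NCD, none of the 8 members passed between KO and WT, against 13.2% of all genes tested (16.5% by the study's rule), again with 0 at an unadjusted p under 0.05 in edgeR and 0 by DESeq2. Msln was higher in each KO-NCD library than in any WT-NCD library, the only member without overlap, against 18% of all genes higher and 19.2% lower. KO-NCD 1, at 25.1 CPM, was nearly level with WT-NCD 1 at 24.9 CPM. The log2 fold change was 1.24 (SE 0.62, edgeR adjusted p = 0.199). The other members ran from -0.27 for Krt8 to 0.51 for Lrrn4, and the median of all 8 was 0.23 against 0.06 over all genes tested. Upk1b had nearly equal means of 37.4 ± 25.1 CPM in KO-NCD and 38.3 ± 8.88 CPM in WT-NCD (SD, n = 3).

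The difference between the diet effects of the genotypes was tested as an interaction. None of the 8 members passed, against 17.7% of all genes tested (25% by the study's rule), and edgeR gave 0 at an unadjusted p under 0.05 and DESeq2 called 0. The interaction for Msln was -1.17 on the log2 scale (SE 0.86, 95% interval -3.07 to 0.74, edgeR adjusted p = 0.384). For the other members it ran from -0.79 for Lrrn4 to 0.60 for Krt8. The call of Msln in WT mice and its absence in KO mice were therefore not shown to differ. All comparisons share libraries, with WT-NCD entering both WT-HFD against WT-NCD and KO-NCD against WT-NCD.

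A further list of 18 mesothelial genes held 17 in the table, of which 16 were tested. Between the WT diets 6 of the 16 rose with HFD and 0 fell, against the 17.6% and 18.4% given for all genes, with a median log2 fold change of 1.05. Aldh1a2, which makes retinoic acid, rose by 2.04 (edgeR adjusted p = 0.000589), and Pdpn, the membrane mucin podoplanin, rose by 1.95 (edgeR adjusted p = 0.00521). Cldn15, a tight junction claudin, rose by 1.17 (edgeR adjusted p = 0.00662) and Ezr, which ties membrane to actin, by 1.17 (edgeR adjusted p = 0.0308). The zinc carrier Slc39a8 rose by 2.08 and the keratin Krt7 by 1.71 (edgeR adjusted p = 0.0364 and 0.0486). Aldh1a2 was called in all 20 alternative settings, Pdpn and Cldn15 in 19, Ezr and Slc39a8 in 14 and Krt7 in 10. Without WT-HFD 2 the log2 fold changes of Ezr, Slc39a8 and Krt7 were 0.82, 1.60 and 0.89, with edgeR adjusted p of 0.128, 0.124 and 0.253. Leaving out WT-NCD 1 or WT-NCD 3 also ended the call for each of these 3 genes, as did WT-HFD 4 for Ezr, WT-NCD 2 and WT-HFD 1 for Slc39a8, and WT-NCD 2, KO-NCD 1, KO-NCD 2 and KO-HFD 3 for Krt7. Pdpn and Aldh1a2 are also made by other cells of inflamed tissue. The 6 macrophage markers summed to 466, 523 and 452 CPM in WT-NCD and 2241, 1622 and 2159 CPM in WT-HFD, and all 6 were called higher. Fibroblast and progenitor markers summed to 2086 to 2448 CPM in WT-NCD and 3278 to 5095 CPM under HFD, with 3 of 6 called higher. Endothelial markers summed to 553 to 678 and 780.2 to 971 CPM, with 2 of 4 called higher, and adipocyte markers to 15160 to 21920 and 11870 to 15630 CPM, with 4 of 6 called lower. The part of these cell types in the mesothelial genes was not tested.

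Aldh1a2 was the one mesothelial gene of either list with a called interaction. It was at 13.2, 13.3 and 11.3 CPM in WT-NCD, at 34.3, 58.9 and 61.8 in WT-HFD, at 14.3, 12.0 and 22.2 in KO-NCD and at 28.2, 16.01 and 25.1 in KO-HFD. WT-HFD lay above all 9 other libraries. The log2 fold change for KO-HFD against WT-HFD was -1.16 (SE 0.29, edgeR adjusted p = 0.0243), and the interaction was -1.52 (SE 0.41, edgeR adjusted p = 0.0280). The former was called in 13 of 20 alternatives and the latter in 10 of 19. Both were lost without WT-HFD 2, WT-HFD 4, KO-HFD 2 or KO-HFD 3, and the interaction also without WT-NCD 1, WT-NCD 3 or KO-NCD 3, with edgeR adjusted p from 0.0501 to 0.0913. Macrophage markers summed to between 542 and 966 CPM in the KO libraries, well below WT-HFD. Of these markers 6 of 6 had a called interaction, against 17.7% of all genes tested. Between the KO diets 0 of the 16 further genes passed in edgeR, against 0.0306% of all genes tested. Their median log2 fold change was 0.67. Between the genotypes under NCD 0 of them passed, against 13.2% of all genes tested, with a median of 0.22.

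**Figure D4:**
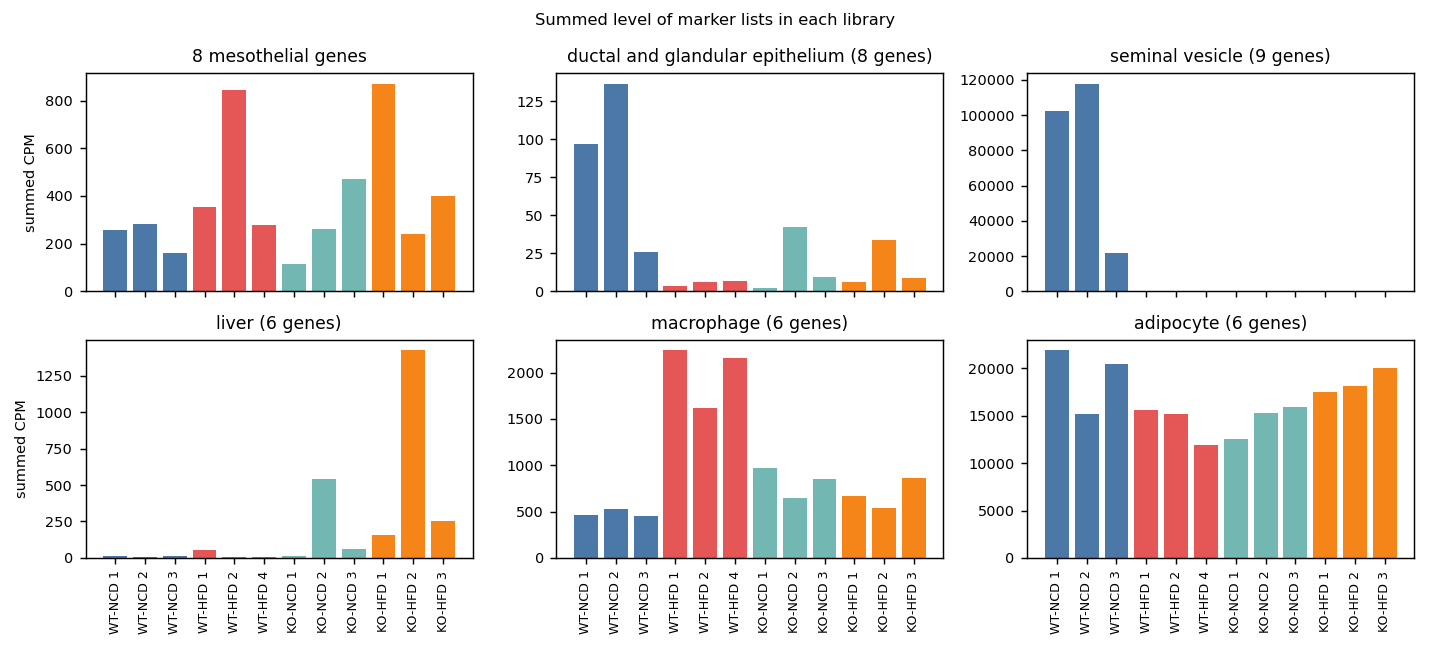
Summed CPM of the mesothelial genes and of marker lists for other cell types, with 1 bar per library and linear axes from 0. Seminal vesicle and glandular epithelial markers stand out in WT-NCD 1 and 2 (96.6 and 136.5 CPM for the latter list), and macrophage markers in WT-HFD (1622 to 2241 CPM).

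The other uroplakins were sparse. There were 6 uroplakins with counts, 4 of them tested, and besides Upk3b and Upk1b these were Upk1a, at most 0.754 CPM, and Upk2. Only Upk2 passed between the WT diets and between the genotypes under NCD, lower than in WT-NCD each time, and it was at 0 outside WT-NCD. Of 9 epithelial keratins 7 were tested. Between the WT diets, Krt7 and the basal keratin Krt14 (log2 fold change 3.03, edgeR adjusted p = 0.0347) were called higher under HFD, and Krt5, its basal partner, was called lower. Krt5 was at 2.43, 2.74 and 0.536 CPM in WT-NCD, with most in WT-NCD 1 and 2, which also held most of the glandular epithelial markers.

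Genes outside the list were ranked by how closely they followed the mean z-score of the 8 members over the 12 libraries, among 13799 genes with a mean of at least 1 CPM. The closest was Crb2, an apical polarity protein of the Crumbs family, with a Pearson r of 0.973 (Spearman rho 0.951). Its r was 0.969 with group means removed and 0.941 without WT-HFD 2 and KO-HFD 1, the 2 libraries farthest from the median score. Rhpn2 followed at 0.955, Ildr2, an immunoglobulin-like receptor of cell junctions, at 0.951 and Tmem151a, a membrane protein, at 0.944. Nkain4, which interacts with the sodium pump, was at 0.940, the polarity protein Pard6b at 0.938, the membrane-bound transcription factor Myrf at 0.931 and the transcription factor Hand2 at 0.927. None of these 8 passed between the WT diets, against 36% of all genes tested, with edgeR adjusted p of 0.0738 to 0.462. They were picked for their likeness to the members, so these tests add no separate evidence. Of 15 further mesothelial genes abundant enough to be ranked, 8 were among the first 100, and their median r was 0.80 against -0.02 for all candidates. Pkhd1l1 and the transcription factor Bnc1 were among them, at 0.916 and 0.905, whereas Krt18 was lowest at 0.369. Of the further genes called higher between the WT diets, Ezr, Krt7 and Slc39a8 were among the first 100, at 0.89, 0.88 and 0.85. Cldn15, Pdpn and Aldh1a2 were not, at 0.73, 0.68 and 0.60 (ranks 161, 220 and 365).

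**Figure D5:**
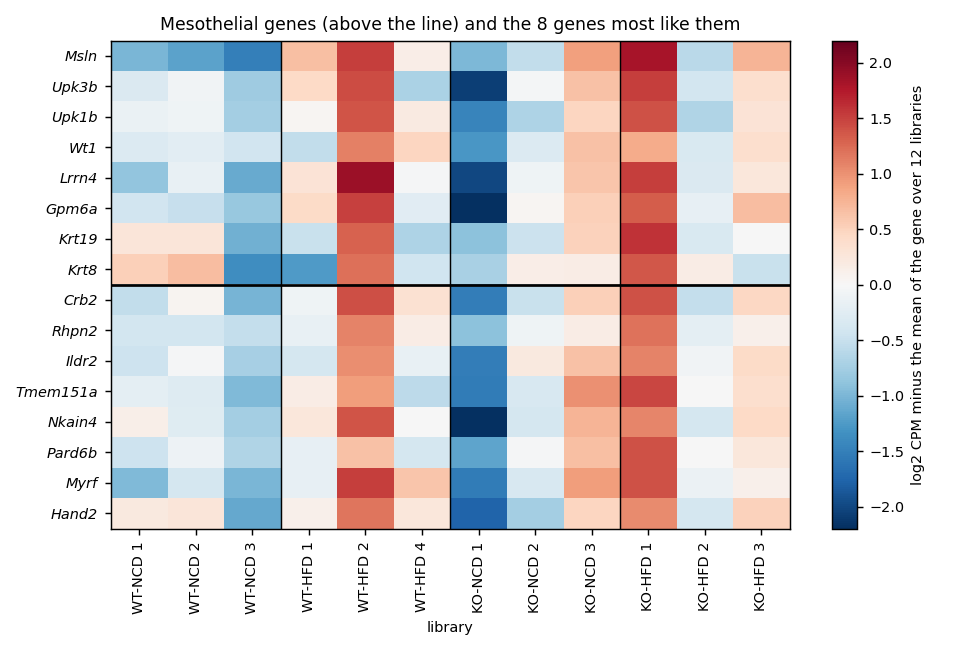
Log2 CPM of the 8 members and of the 8 genes most like them in the 12 libraries, as colours for the difference from each gene's own mean. WT-HFD 2 and KO-HFD 1 are high and KO-NCD 1 is low across nearly all rows.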

How the data were processed

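RNA from 12 gWAT samples was sequenced. According to the submitters' processing notes, the authors converted base calls with bcl2fastq 2.20.0, trimmed reads with Trimmomatic, mapped them to mm10 with HISAT2 2.1.0 and counted genes with StringTie 1.3.4d. The deposited table holds raw counts per Entrez ID, of which 19745 matched a symbol and 47 did not. A column for WT-HFD 4 was matched to its group alone.

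Counts of the 16352 genes that passed filterByExpr (minimum count 10, minimum total 15) were scaled by TMM and modelled with edgeR 4.0.16 (R 4.3.3), the 4 groups in a single fit with 8 residual degrees of freedom. The quasi-likelihood test was run on all genes, with Benjamini-Hochberg adjustment and a threshold of 0.05. The procedure was tested on simulated data. Correlations used log2 CPM with a prior count of 2. Coordinates and promoters are from RefSeq on GRCm38. Exon lengths for the levels per kilobase, and the overlapping genes, are from the GENCODE annotation. The 2 annotations can differ, and GENCODE starts Gpm6a at chr8:54954843 where RefSeq starts it at 54779434. Nothing says whether libraries of a group came from separate mice, so p-values measure only the spread between these samples.

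All 8 members are named. From the other lists the text names genes of smallest p, the values of whole marker lists, and genes singled out after their values were seen. The members and lists were chosen with earlier results of these data known. KO-NCD and KO-HFD libraries that share a number deviated together, with correlations over all genes of 0.468, 0.699 and 0.195 for numbers 1, 2 and 3, whereas same-numbered libraries in other comparisons had mixed signs. Alternatives were DESeq2 1.42.0 (size factors, and its Wald test), no filter, a fit of 2 groups, a fold of 1.5 with unadjusted p, a replicate block, leaving out libraries, and leaving out seminal vesicle genes. The replicate block in the KO libraries alone was added after the data were seen.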

Additional observations from a re-analysis of the deposited data

Results flagged for a closer look

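Aldh1a2 had a diet by genotype interaction of -1.52 on the log2 scale, a difference between the diet effects in WT and KO mice that passed edgeR's quasi-likelihood test with an adjusted p of 0.0280. No other mesothelial gene named here had a difference between the genotypes' diet effects that passed.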

How the results depend on the processing

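The number of members called between WT-HFD and WT-NCD was 1, and it was 2 with a fold of 1.5 and an unadjusted p, 3 in a fit of the 2 groups and 0 without WT-NCD 1 and 2; leaving out 1 library gave 0 to 2. No other comparison had a member called under any alternative. Over all genes, WT-HFD against WT-NCD gave 2474 without WT-NCD 1 and 2, and 4626 to 5803 without 1 library. KO-HFD against KO-NCD gave 5 genes, with 684 at the fold of 1.5, 323 by DESeq2's Wald test, 3 without the filter, 0 in the fit of 2 groups, 0 without WT-NCD 1 and 2, 0 with the replicate block in the KO libraries alone and 0 to 36 without 1 library. KO-HFD against WT-HFD gave 2570, with 4084 by DESeq2, 1313 in the fit of 2 groups, 661 with the replicate block, 1014 without KO-NCD 2 and KO-HFD 2 and 937 to 2783 without 1 library. KO-NCD against WT-NCD gave 2154, with 3749 by DESeq2, 1188 in the fit of 2 groups, 1209 with the block, 76 without WT-NCD 1 and 2 and 499 to 2395 without 1 library. The interaction gave 2893, with 1356 with the block, 736 without WT-NCD 1 and 2 and 1740 to 3055 without 1 library. The cause of these shifts was not tested.

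With the replicate block no member's call changed in any comparison, and the signs that turned were those of Krt8 for WT-HFD against WT-NCD (-0.009) and of Msln (-0.457) and Upk3b (-0.288) for KO-HFD against WT-HFD, all log2. The block ended both genotype calls of Aldh1a2 (KO-HFD against WT-HFD, then the interaction), with edgeR adjusted p of 0.116 and 0.0916, and those of Ezr and Krt7 between the WT diets. Without KO-NCD 2 and KO-HFD 2, KO-HFD against WT-HFD turned for Upk1b (0.274), Wt1 (0.115), Lrrn4 (0.049) and Gpm6a (0.292), KO-NCD against WT-NCD for Upk1b (0.112) and Krt19 (0.033), and the interaction for Upk3b (0.208) and Upk1b (0.162). Without WT-NCD 1 and 2, KO-NCD against WT-NCD turned for Upk1b (0.388), Krt19 (0.868) and Krt8 (1.263), and the interaction for Krt19 (-0.549) and Krt8 (-0.945). None of these values was called. Leaving out 1 library turned these log2 fold changes, given as ranges. WT-HFD against WT-NCD ran from -0.523 to 0.719 for Krt19 and -0.975 to 0.425 for Krt8, and KO-HFD against KO-NCD from -0.053 to 0.961 for Krt8. KO-HFD against WT-HFD ran from -0.66 to 0.54 for Msln, -0.607 to 0.738 for Upk3b, -0.784 to 0.459 for Upk1b, -0.468 to 0.304 for Wt1, -0.983 to 0.548 for Lrrn4, -0.495 to 1.257 for Krt19, -0.349 to 1.339 for Krt8 and -0.438 to 0.606 for Gpm6a. KO-NCD against WT-NCD ran from -0.368 to 0.701 for Upk3b, -0.715 to 0.306 for Upk1b, -0.388 to 0.564 for Wt1, -0.093 to 0.955 for Lrrn4, -0.611 to 0.158 for Krt19, -0.68 to 0.01 for Krt8 and -0.119 to 0.88 for Gpm6a. The interaction ran from -0.854 to 0.491 for Upk3b, -0.748 to 0.622 for Upk1b, -0.703 to 0.249 for Wt1, -1.494 to 0.037 for Lrrn4, -0.391 to 1.36 for Krt19, -0.081 to 1.608 for Krt8 and -0.893 to 0.196 for Gpm6a. The lowest count of a member in any library was 327. With 3 libraries a group, standard errors for WT-HFD against WT-NCD were 0.49 to 0.71 on the log2 scale. What limited the number of calls was not tested.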
